A study of Homo sapiens with 6 samples.

Results

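Homologous recombination repairs a broken chromosome by copying the intact sister, and the Fanconi anemia pathway unhooks crosslinks between DNA strands and hands the resulting break to the same machinery. The 43 genes described here encode that machinery, from the sensors of a broken end to the nucleases that separate joined chromosomes and the checkpoint kinases that hold the cell cycle meanwhile. They were taken by symbol from a list that was drawn up with earlier results of these data known, although no measured value is part of the rule, and all 43 were found among the 23228 gene symbols of the count tables. The cells were MDA-MB-231, a human line established from a triple-negative breast cancer (TNBC). The control group was 3 replicates carrying a non-targeted shRNA, and the PELP1-KD group was 3 replicates carrying an shRNA against PELP1. In both groups the shRNA was introduced by lentivirus and the cells were selected with puromycin. PELP1 is a nuclear scaffold protein, known as a coregulator of nuclear receptors and of E2F1 and as part of a ribosome assembly complex. Each group rests on a single shRNA, and nothing in the labels says that its replicates came from separate cultures, so p-values measure the spread between these replicates, which may be technical.

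In outline, a double-strand break is first bound by the MRE11-RAD50-NBN complex, and its ends are trimmed by RBBP8 (CtIP), EXO1 and DNA2. BRCA1 with BARD1 recruits PALB2 and BRCA2 to the exposed strand, and the CX3 and BCDX2 complexes and the RAD54 proteins act in the invasion of the sister. The joined molecules are then either dissolved by the BLM complex or cut by nucleases such as MUS81-EME1. At a crosslink, the Fanconi core complex attaches ubiquitin to FANCD2 and FANCI, which starts the incision. Many of these genes are transcribed mainly in S and G2 phase, when a sister is present.

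The replicates held from 17304864 to 23132102 reads assigned to genes, and a gene with 3 counts corresponded to between 0.128 and 0.177 CPM, the read count scaled to a common library size. These floors cover counting error alone, and no molecular identifiers are named for these libraries. The 43 genes lay far above them, with between 123 and 4215 reads per replicate. Counts were scaled by edgeR's TMM method and tested by its quasi-likelihood test, with Benjamini-Hochberg adjustment over the 12796 genes that had enough reads. PELP1 itself was 48.8% lower in PELP1-KD cells, with 57.8 CPM ± 2.14 (SD, n = 3) under control shRNA and 29.6 CPM ± 0.876 (SD, n = 3) under PELP1 shRNA, a log2 fold change (log2FC) of -0.97 with a standard error of 0.055 (adjusted p-value 1.48e-11). The 3 PELP1-KD values lay below the 3 control values, with an exact permutation p of 0.1, the smallest that 3 against 3 allows. The cells expressed the mesenchymal markers VIM and CD44 at 1189 and 198 RPKM in the control group, while ESR1, PGR and CDH1 had between 0 and 4 reads in any replicate. Other luminal or epithelial markers were expressed, with KRT18, KRT19 and KRT8 at 139.8, 70.3 and 62.1 RPKM, ERBB2 at 19.9 RPKM and EPCAM at 4.71 RPKM in the control group.

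The repair genes changed in both directions and by modest amounts. All 43 passed the filter on low counts and were tested. At an adjusted p-value below 0.05, 11 of the 43 (25.6%) had fallen in the PELP1-KD group, where 24.2% of all tested genes were lower. Another 6 (14.0%) were higher, where 22.7% of all tested genes were higher. The remaining 26 did not pass, so that 39.5% of the 43 were called in either direction and 46.9% of all tested genes. The share that was lower was close to the background and the share that was higher was below it, and neither difference was tested. None of the 43 passed a 2-fold change as well in edgeR's test, as 3.24% of all genes tested did. The count past an unadjusted p of 0.05 was 19 of 43, with 53.4% of all tested genes past it, and neither DESeq2 nor voom put a gene past the 2-fold threshold. The median log2FC was -0.03, against 0.0014 over all tested genes, and the values ran from -0.46 for MMS22L to 0.50 for CHEK2. The median size of the change, leaving aside its direction, was 0.115 on the log2 scale, and 0.167 over all tested genes. The groups did not overlap in 15 genes that were lower and 8 that were higher, where 28.0% and 27.0% of all tested genes did not overlap in those directions.

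**Figure D1:**
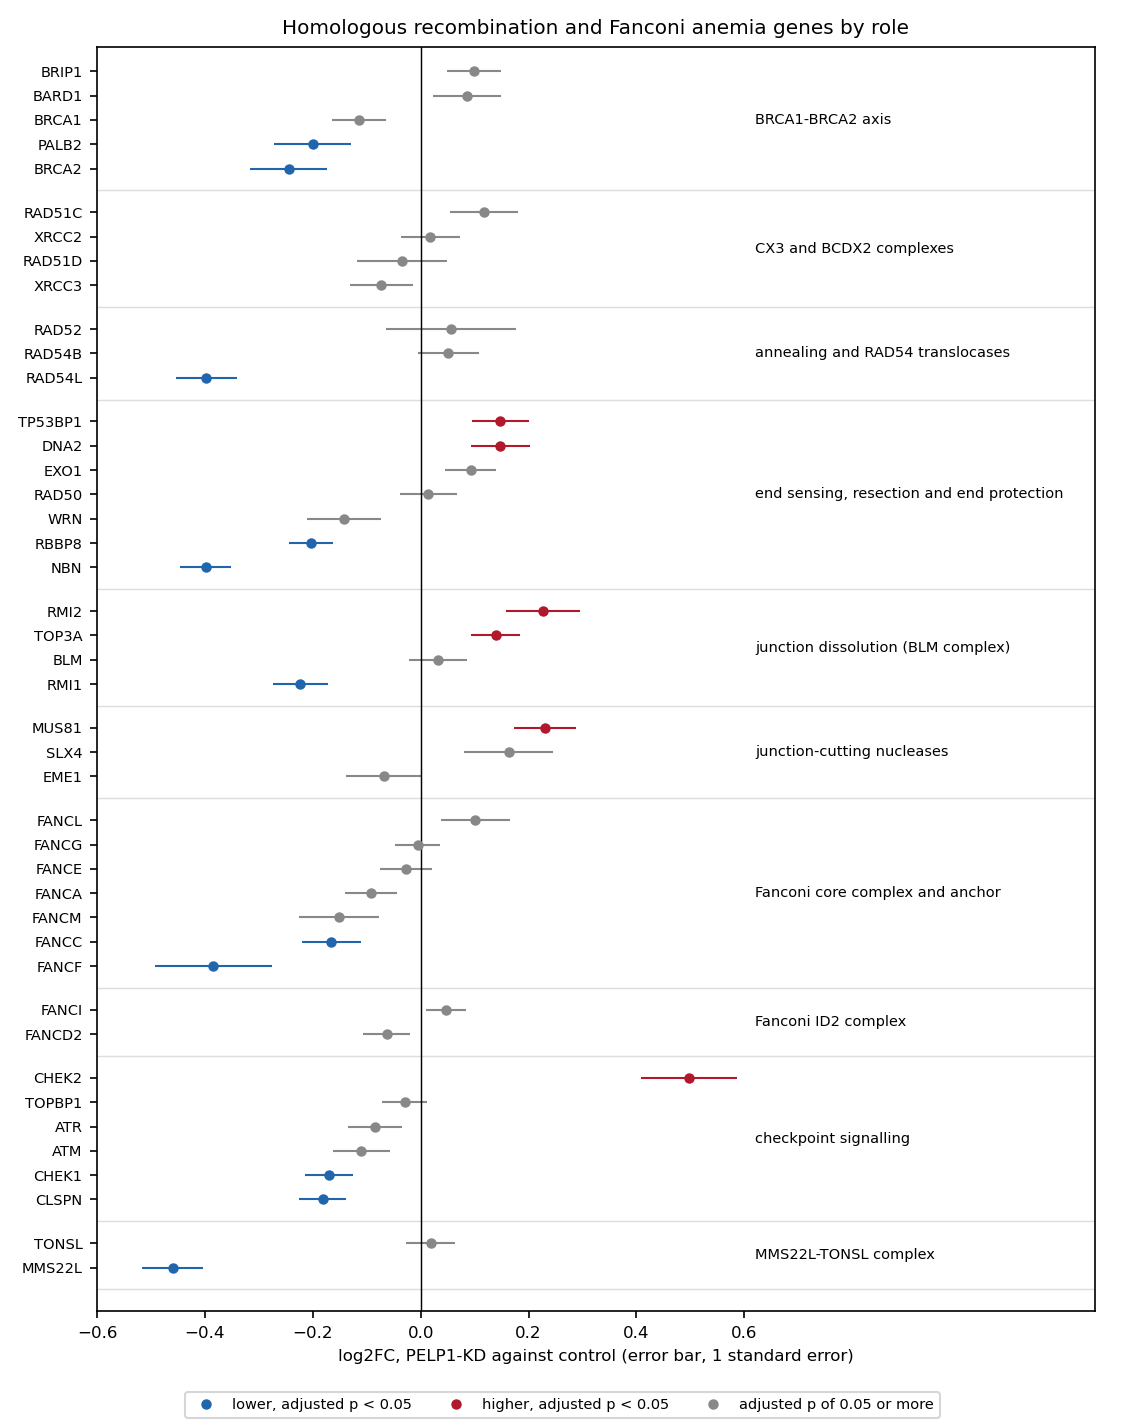
Log2FC of the 43 genes in PELP1-KD against control cells, grouped by role, with bars of 1 standard error; blue and red mark genes lower and higher at an adjusted p-value below 0.05. Without correction for GC content and length, no role group moved as a whole. MMS22L, at -0.46, stands apart from its partner TONSL, at 0.02, and CHEK2, at 0.50, from the other checkpoint genes, which lie between -0.18 and -0.03.

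Replicates were close to each other, with a median coefficient of variation over the 43 genes of 4.43% in the control and 3.57% in the PELP1-KD group. Standard errors of the log2FC ran from 0.038 for FANCI to 0.12 for RAD52, with a median of 0.055. Changes of about 10% could thus be called for the well-expressed genes. Whether a lower level came from less RNA per cell or from fewer cells in the phases that express the gene cannot be told apart in bulk RNA.

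Expression per length placed the Fanconi core gene FANCG first in control cells, at 37.5 RPKM ± 0.945 (SD, n = 3), followed by RBBP8 at 33.7 RPKM ± 0.453 and FANCI at 33.4 RPKM ± 1.46. The last 2 did not differ beyond their spread. At the other end were SLX4 at 2.47 RPKM ± 0.0598, RAD52 at 2.10 RPKM ± 0.151 and RAD51D at 1.27 RPKM ± 0.0537. BRCA1 held the median rank at 10.2 RPKM ± 0.452, and BRCA2 was near the bottom at 2.78 RPKM ± 0.228. Of the 42 neighbouring steps in this order, 22 were no larger than 1 SD of the genes concerned. PELP1-KD cells kept FANCG first and RAD51D last, and the largest move was that of RAD54L, which went from rank 17 to rank 25. RPKM used exon lengths of GENCODE 29, which for RAD51D come to 10190 bases, so a gene with long alternative exons is placed low.

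To show the sequence in front of the genes that moved most, the promoters of the 2 largest falls and the 2 largest rises with a printable entry in the RefSeq promoter table are given here, each as the 300 bases from 250 before to 50 after the transcription start, read along the gene's strand (GRCh38.p14). Capitals mark CCAAT boxes, read as CCAAT or as its reverse complement ATTGG. RAD54L has a further start in the table, and the first entry is shown.
MMS22L, chr6:97283167-97283466, minus strand: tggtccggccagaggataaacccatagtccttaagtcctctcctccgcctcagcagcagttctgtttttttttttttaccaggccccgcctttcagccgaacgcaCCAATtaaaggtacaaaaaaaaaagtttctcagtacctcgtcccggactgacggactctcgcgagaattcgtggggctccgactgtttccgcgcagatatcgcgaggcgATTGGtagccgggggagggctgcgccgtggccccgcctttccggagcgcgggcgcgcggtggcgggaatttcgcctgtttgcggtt
RAD54L, chr1:46247438-46247737, plus strand: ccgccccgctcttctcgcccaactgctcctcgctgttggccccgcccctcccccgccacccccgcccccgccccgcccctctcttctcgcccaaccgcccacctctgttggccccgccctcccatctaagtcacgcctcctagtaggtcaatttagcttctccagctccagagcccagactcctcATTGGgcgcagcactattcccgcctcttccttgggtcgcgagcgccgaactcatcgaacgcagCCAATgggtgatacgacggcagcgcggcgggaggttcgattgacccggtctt
CHEK2, chr22:28741771-28742070, minus strand: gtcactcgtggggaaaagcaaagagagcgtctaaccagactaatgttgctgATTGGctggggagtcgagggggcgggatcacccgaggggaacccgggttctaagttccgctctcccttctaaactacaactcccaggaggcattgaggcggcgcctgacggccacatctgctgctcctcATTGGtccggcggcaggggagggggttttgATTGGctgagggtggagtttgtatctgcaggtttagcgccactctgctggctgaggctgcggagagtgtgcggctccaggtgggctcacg
MUS81, chr11:65860183-65860482, plus strand: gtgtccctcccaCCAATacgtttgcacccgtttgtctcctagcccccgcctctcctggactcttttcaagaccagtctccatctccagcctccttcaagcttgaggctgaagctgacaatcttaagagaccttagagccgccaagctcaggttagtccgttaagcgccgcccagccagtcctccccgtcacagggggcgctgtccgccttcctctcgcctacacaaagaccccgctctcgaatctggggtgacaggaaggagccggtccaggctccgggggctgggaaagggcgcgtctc

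All 4 windows held at least 1 CCAAT box, with 3 in CHEK2, starting 199, 70 and 40 bases before the start. The box therefore stood in front of falling and rising genes alike, and it was found in 17 of the 36 members with a window (47.2%) and in 39.7% of the 27305 genes in the table. By call it was in 7 of 10 members that fell, 3 of 4 that rose and 7 of 22 that did not pass, a split that was not tested. An E2F site, searched on both strands as TTTCCCGC, TTTCGCGC, TTTGCCGC or TTTGGCGC, was in 8 of the 36 (22.2%) and in 3.99% of all genes in the table. These 8 were CLSPN, FANCC and RMI1, which fell, and EXO1, FANCA, FANCD2, TOPBP1 and XRCC2, which did not pass the test, so that 3 of the 10 genes that fell and had a window held it and 0 of the 4 that rose. The cell cycle homology region TTTGAA was in 3 of the 36 (8.33%) and in 18.2% of all genes, and the E-box CACGTG, read by MYC and related factors, in 3 (8.33%) and 8.77%. A match is a description of these letters and not of a bound factor.

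Among the genes of the BRCA1-BRCA2 axis, BRCA2 and PALB2 were lower, and BRCA1, BARD1 and BRIP1 did not pass the test. BRCA2, a mediator of strand invasion, had 609, 694 and 591 reads under control shRNA, set beside 569, 545 and 687 under PELP1 shRNA. Scaled for depth this was 33.3 CPM ± 2.73 (SD, n = 3) against 28.0 CPM ± 2.10 (SD, n = 3), for a log2FC of -0.24 ± 0.071 (SE) at an adjusted p-value of 0.00799. PALB2, which bridges BRCA1 and BRCA2, had 564, 649 and 490 reads against 507, 559 and 600, or 29.8 CPM ± 3.08 against 25.9 CPM ± 0.367, with a log2FC of -0.20 ± 0.071 (SE) at an adjusted p-value of 0.0248. Scaled for depth, the groups did not overlap in either gene. BRCA1 itself had a log2FC of -0.11 ± 0.051 (SE) at an adjusted p-value of 0.0693, and its ligase partner BARD1 and the helicase BRIP1 had 0.09 and 0.10 (adjusted p-values 0.27 and 0.112). None of the 4 genes of the CX3 and BCDX2 complexes passed, with log2FC of -0.07 for XRCC3, -0.03 for RAD51D, 0.02 for XRCC2 and 0.12 for RAD51C. With correction for GC content and length neither BRCA2, at -0.06 (adjusted p-value 0.372), nor PALB2, at -0.14 (adjusted p-value 0.0637), passed. The fall of BRCA2 also missed edgeR's threshold without PELP1-KD replicate 2, at -0.18 (adjusted p-value 0.0599). That of PALB2 missed it with DESeq2 (adjusted p-value 0.0516) and with library totals (adjusted p-value 0.0814). It also missed it without control replicate 1, at -0.12 (adjusted p-value 0.151), and without PELP1-KD replicate 1, 2 or 3, at -0.20, -0.21 and -0.19 (adjusted p-values 0.0568, 0.0505 and 0.0806).

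RAD54L, a motor protein that acts on the sister duplex during invasion, was among the largest falls. It had 653, 853 and 698 reads under control shRNA, set beside 575, 618 and 685 under PELP1 shRNA. This was 38.5 CPM ± 0.894 (SD, n = 3) against 29.2 CPM ± 0.276 (SD, n = 3), 24.1% lower, with a log2FC of -0.40 ± 0.057 (SE) at an adjusted p-value of 8.12e-06. The 2 groups were well apart, and the fall held under every alternative tried. Its paralog RAD54B had a log2FC of 0.05 (adjusted p-value 0.477), and RAD52, which anneals single strands, 0.06 (adjusted p-value 0.726). Of the exon bases of RAD54L, 18.0% are shared with LRRC41 on the other strand, which itself had a log2FC of -0.28, and the strand setting of the counting is not given in the sources used here.

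At the broken end itself, NBN and RBBP8 fell while DNA2 and TP53BP1 rose. NBN, the subunit that links the MRE11 complex to ATM, had 2439, 3048 and 2295 reads under control shRNA, set beside 2091, 2072 and 2463 under PELP1 shRNA. In CPM it went from 136 ± 7.63 (SD, n = 3) to 103 ± 5.27 (SD, n = 3), for a log2FC of -0.40 ± 0.047 (SE) at an adjusted p-value of 6.4e-07. RBBP8, which starts resection, had 2071, 2847 and 2227 reads against 2186, 2216 and 2548, or 124 CPM ± 1.67 against 108 CPM ± 4.14, for a log2FC of -0.20 ± 0.041 (SE) at an adjusted p-value of 3.41e-04. Both calls held under every alternative, but with correction for GC content and length the log2FC was -0.25 for NBN and -0.11 for RBBP8. DNA2, a nuclease and helicase of long-range resection, and TP53BP1, which shields ends from resection, had the same log2FC of 0.15, with adjusted p-values of 0.0315 and 0.0253. DNA2 no longer passed with DESeq2 (adjusted p-value 0.0518), nor without control replicate 2 or 3 or PELP1-KD replicate 1 or 3, with log2FC down to 0.098. TP53BP1 no longer passed without control replicate 2 or 3 or PELP1-KD replicate 2 or 3, with log2FC down to 0.108. EXO1, RAD50 and WRN did not pass, with log2FC of 0.09, 0.01 and -0.14. Of the exon bases of TP53BP1, 28.9% lie opposite TUBGCP4, which had a log2FC of 0.03.

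**Figure D2:**
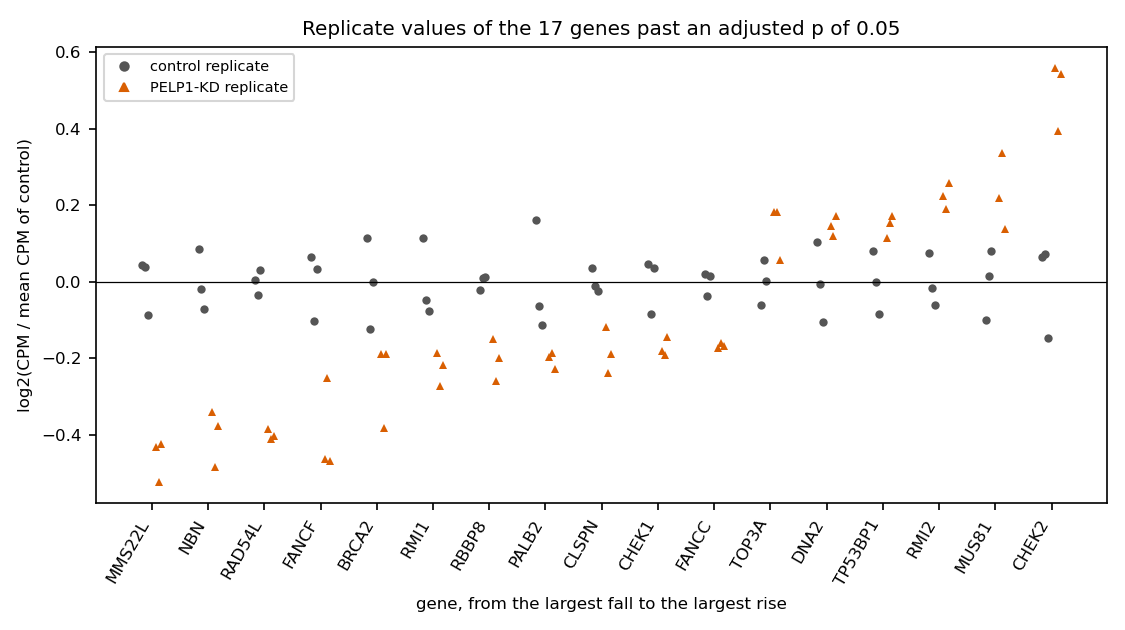
Depth-scaled expression of the 17 genes past an adjusted p-value of 0.05 in each replicate, as log2 of CPM over the mean CPM of the control replicates, ordered from the largest fall to the largest rise. In all 17 genes the 3 PELP1-KD replicates (triangles) lie entirely to one side of the 3 control replicates (circles), by a wide gap in MMS22L, NBN, RAD54L and CHEK2 and by a narrow gap in DNA2, TP53BP1 and TOP3A.

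In the BLM complex, which dissolves double Holliday junctions, RMI1 fell while RMI2 and TOP3A rose. RMI1 had 1568, 1884 and 1443 reads under control shRNA, set beside 1467, 1512 and 1734 under PELP1 shRNA, or 85.6 CPM ± 6.19 (SD, n = 3) against 73.3 CPM ± 2.22 (SD, n = 3), for a log2FC of -0.22 ± 0.051 (SE) at an adjusted p-value of 0.00123. Its partner RMI2 had 359, 453 and 343 reads against 459, 491 and 568, or 20.2 CPM ± 0.975 against 23.6 CPM ± 0.559, for a log2FC of 0.23 ± 0.069 (SE) at an adjusted p-value of 0.00988. The topoisomerase TOP3A rose by 0.14 on the log2 scale (adjusted p-value 0.0176), and the helicase BLM had a log2FC of 0.03 (adjusted p-value 0.65). For RMI2 the rise held under every alternative. With correction for GC content and length, RMI1 was at -0.07 (adjusted p-value 0.111) and TOP3A at 0.08 (adjusted p-value 0.0728), and neither passed. The rise of TOP3A also missed the threshold without PELP1-KD replicate 1 or 2, and its closest control and PELP1-KD values nearly met.

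The nuclease MUS81, which cuts joined molecules, rose by 17.4%. It had 927, 1350 and 1103 reads under control shRNA, set beside 1333, 1583 and 1522 under PELP1 shRNA, or 58.8 CPM ± 3.69 (SD, n = 3) against 69.1 CPM ± 4.81 (SD, n = 3). The log2FC was 0.23 (standard error 0.057, adjusted p-value 0.00233). The call held under every alternative, but the log2FC was 0.11 (adjusted p-value 0.0362) with correction for GC content and length. Neither EME1, its regulatory partner, nor the scaffold SLX4 passed, at -0.07 and 0.16.

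Of the 7 genes of the Fanconi core complex and its anchor FANCM, 2 (28.6%) fell and none rose, where 24.2% of all tested genes fell. FANCF, an adaptor of the complex, was among the least expressed genes described here, with 154, 184 and 158 reads under control shRNA, set beside 123, 156 and 148 under PELP1 shRNA. That was 8.70 CPM ± 0.533 (SD, n = 3) against 6.64 CPM ± 0.585 (SD, n = 3), a log2FC of -0.38 with a standard error of 0.11 (adjusted p-value 0.00653), and it held under every alternative. FANCC, a core subunit, had 668, 864 and 700 reads against 674, 744 and 817, or 39.0 CPM ± 0.833 against 34.7 CPM ± 0.148, for a log2FC of -0.17 ± 0.055 (SE) at an adjusted p-value of 0.0176. FANCC missed the threshold with library totals (adjusted p-value 0.0847) and without control replicate 3 or PELP1-KD replicate 1 or 3. FANCA, FANCE, FANCG, FANCL and FANCM lay between -0.15 and 0.10 and did not pass. With correction for GC content and length, FANCA, FANCE and FANCG passed as lower, at -0.14, -0.16 and -0.13 (adjusted p-values 0.00286, 0.00159 and 0.0013). Under that setting 5 of the 7 were lower, where 28.2% of all tested genes were, without a test of the difference. Without that correction, the genes of the 2 proteins that the core complex modifies were not called, at -0.06 for FANCD2 and 0.05 for FANCI.

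The checkpoint kinases parted. CHEK2, the kinase that ATM activates after a break, rose the most of all 43 genes, from 202, 273 and 183 reads in the control replicates to 328, 320 and 392 in the PELP1-KD replicates. In CPM this was 11.4 ± 0.966 (SD, n = 3) against 16.2 ± 1.01 (SD, n = 3), 41.1% higher, with a log2FC of 0.50 ± 0.089 (SE) at an adjusted p-value of 1.08e-04. CLSPN, the adaptor through which ATR activates CHEK1, had 1775, 2310 and 1788 reads against 1839, 1852 and 2114, or 102 CPM ± 2.23 against 90.3 CPM ± 3.79, for a log2FC of -0.18 ± 0.044 (SE) at an adjusted p-value of 0.00178. CHEK1 fell by 0.17 on the log2 scale (adjusted p-value 0.00404). The kinases above them and the ATR activator TOPBP1 did not pass, with log2FC of -0.11 for ATM, -0.08 for ATR and -0.03 for TOPBP1. The changes of CHEK2 and CLSPN held under every alternative. That of CHEK1 no longer passed with correction for GC content and length, at -0.08 (adjusted p-value 0.0628). CHEK2 has 4 annotated pseudogenes in GENCODE 29, and reads that aligned to more than a single place were counted on no gene, so its level is uncertain. The same holds for RBBP8 and FANCD2, which have 1 annotated pseudogene each.

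MMS22L had the largest fall of the 43. Together with TONSL it forms a complex that binds newly replicated chromatin and acts at damaged forks. It had 863, 1156 and 828 reads under control shRNA, set beside 716, 735 and 868 under PELP1 shRNA, or 49.5 CPM ± 2.49 (SD, n = 3) against 36.0 CPM ± 1.36 (SD, n = 3), 27.3% lower. The log2FC was -0.46 with a standard error of 0.057 (adjusted p-value 1.33e-06), and it held under every alternative. TONSL, with a log2FC of 0.02 ± 0.045 (SE) at an adjusted p-value of 0.757, did not pass. With correction for GC content and length both genes passed as lower, MMS22L at -0.32 and TONSL at -0.11 (adjusted p-value 0.00394).

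Since several proteins of this group work as fixed partners, the read counts of 14 pairs were compared within each replicate, where library scaling cancels. The pairs were written down after the values of the genes were known, so their sizes are a description. In 10 of the 14 pairs the ratio in every PELP1-KD replicate lay outside the control range. The first-named gene was relatively lower in 8 of them and relatively higher in 2. Naming a pair in the other order would turn its sign, so this split carries no direction. How often other gene pairs separate in this way was not computed, so the count of 10 has no background. Among all tested genes taken singly, 28.0% did not overlap as lower and 27.0% as higher. An exact permutation test gave p = 0.1 for each of the 10 pairs, the smallest that 3 against 3 allows, and 0.14 after adjustment over the 14 pairs. That p-value follows from the separation itself and adds nothing to it. The log2 ratio of RMI1 to RMI2 was 2.13, 2.06 and 2.07 under control shRNA and 1.68, 1.62 and 1.61 under PELP1 shRNA, a difference of -0.45 (standard error 0.029). That of MMS22L to TONSL went from -1.11, -1.29 and -1.39 to -1.68, -1.83 and -1.72, a difference of -0.48 (standard error 0.094). For NBN to RAD50 the difference was -0.42 (standard error 0.047), for RAD54L to RAD54B -0.45 (standard error 0.058), and for CHEK1 to CHEK2 -0.67 (standard error 0.11). MUS81 gained on EME1 by 0.30 (standard error 0.098). Ratios shifted less between BRCA1 and BARD1, at -0.20 (standard error 0.071), and between FANCD2 and FANCI, at -0.11 (standard error 0.037). The groups overlapped for BRCA2 and PALB2, at -0.05, for RAD51D and XRCC2, for BLM and TOP3A and for FANCA and FANCG. With correction for GC content and length, the differences were smaller for MMS22L and TONSL, at -0.20, for RMI1 and RMI2, at -0.28, and for FANCC and FANCE, at -0.02 in place of -0.14. They were larger for RAD51C and XRCC3, at 0.39 in place of 0.19, and for RAD54L and RAD54B, at -0.65. Among the pairs that overlapped, the sign turned for BRCA2 and PALB2, at 0.07, and for BLM and TOP3A, at 0.04. A shifted ratio shows that 2 transcripts changed unequally and not that either was constant. RAD50 shares 90.6% of its exon bases with an annotated readthrough gene and RAD54B 63.3% with FSBP, both on the same strand, so that their counts depend on how shared reads were assigned. On the other strand, XRCC3 has 45.3% of its exon bases opposite KLC1, FANCA 22.4% opposite ZNF276 and EME1 10.3% opposite LRRC59. Counts of these genes may depend on the strand setting, which is not given in the sources used here.

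**Figure D3:**
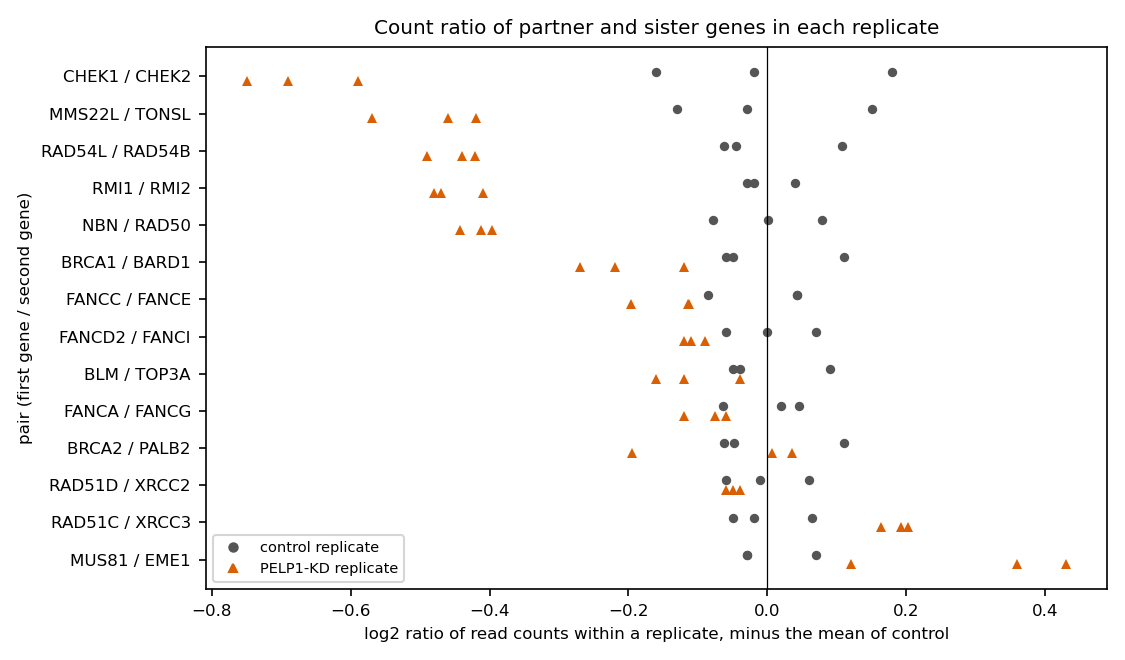
Log2 ratio of the read counts of 2 genes within each replicate, with the mean of the 3 control replicates set to 0, for 14 pairs of partner or sister genes. The PELP1-KD replicates (triangles) are clear of the control replicates (circles) in 10 pairs, farthest for CHEK1 over CHEK2, at a mean of -0.67, and on the opposite side for RAD51C over XRCC3 and MUS81 over EME1.

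Other genes of the pathway, a list of 62 outside the 43, moved in both directions too. Of the 60 tested, 18 (30.0%) were lower and 11 (18.3%) higher at the same threshold, where 24.2% and 22.7% of all tested genes were. The 60 genes had a median log2FC of 0.009. Their largest falls included WDR48, the cofactor of the FANCD2 deubiquitinase USP1, at -0.58 (standard error 0.051, adjusted p-value 1.01e-08), and the helicase MCM9 at -0.46 (adjusted p-value 5.37e-04). USP1 itself was at -0.29. FAM175A and BRCC3, the scaffold and the deubiquitinase of the BRCA1-A complex, fell by 0.42 and 0.39 on the log2 scale (adjusted p-values 2.67e-05 and 2.79e-05). Within that complex BRE, a structural subunit, rose by a log2FC of 0.59 ± 0.056 (SE) at an adjusted p-value of 3.77e-08, with 36.5 CPM ± 2.15 under control shRNA and 54.9 CPM ± 1.77 under PELP1 shRNA (SD, n = 3). The partner proteins SFR1 and SWI5, which form a complex in recombination, also parted, at -0.30 and 0.38 (adjusted p-values 0.0228 and 1.5e-04), although the replicates of SFR1 overlapped. The other large rises were those of the checkpoint clamp subunit RAD9A at 0.45, of C17orf70 (FAAP100 of the core complex) at 0.24 and of MAD2L2 (REV7) at 0.24. The last 2 missed the threshold once GC content and length were corrected for.

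End joining, which rejoins breaks without a sister, was compared as the nearest other branch of break repair. Of its 18 genes, 4 (22.2%) were lower and 2 (11.1%) higher, where 24.2% and 22.7% of all tested genes were. The falls were those of APLF, a scaffold of the ligation step, at -0.69 (standard error 0.11, adjusted p-value 2.04e-05), of the Ku subunits XRCC5 at -0.35 (adjusted p-value 5.73e-09) and XRCC6 at -0.15 (adjusted p-value 3.66e-04), and of the ligase LIG4 at -0.24 (adjusted p-value 0.00407). TDP2 and TDP1, which free ends of trapped topoisomerase, rose by 0.12 and 0.11 on the log2 scale. Both rises were lost without control replicate 2 or 3 or PELP1-KD replicate 3, and the list held 1 higher gene without PELP1-KD replicate 1 or 2.

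Genes of the cell cycle moved beside the repair genes. In a list of 39 G1/S genes, 15 (38.5%) were lower and 5 (12.8%) higher, where 24.2% and 22.7% of all tested genes were. The G1/S genes had a median log2FC of -0.04. POLA1, of the primase complex, and USP1 fell the most, by 0.34 and 0.29 on the log2 scale, and CHAF1B and RFC2 rose by 0.22 and 0.17. In a list of 54 G2/M genes, 31 (57.4%) were lower and 3 (5.56%) higher, against the same 24.2% and 22.7%, without a test of the differences. The G2/M genes had a median log2FC of -0.11 and a range from -0.45 for ANP32E to 0.31 for HN1. ECT2 fell by 0.39 on the log2 scale, and CDC25C rose by 0.24. MKI67, a marker of cycling cells, had a log2FC of -0.07 (adjusted p-value 0.0499). Leaving out any PELP1-KD replicate left 3 of the G1/S genes higher. The part of the cell cycle in the changes of the repair genes was not tested.

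Base composition also moved with the results. Over 12325 tested genes with a known sequence, transcripts with less than 40% G and C had a median log2FC of -0.14 and 46.8% of them were lower, while those with 55% or more had a median of 0.10 and 11.1% were lower. The repair genes are poor in G and C, with a median of 42.8% against 48.1% over all tested genes. Of the 13 members below 40%, 4 were lower and 1 higher, and of the 8 members at 55% or more, 0 were lower and 2 higher. Spearman's correlation between log2FC and GC content was 0.26 across the 43 genes and 0.34 across all tested genes, which share libraries and are not independent replicates. When each library was corrected for its trend with GC content and length, 12 of the 43 (27.9%) were lower and 13 (30.2%) higher, where 11 and 6 were before. Under that setting 28.2% of all tested genes were lower and 22.6% higher, so the share of the 43 that was higher went from below the background to above it, without a test of the difference. BRCA2 and CHEK1, at -0.06 and -0.08, and PALB2, RMI1 and TOP3A then no longer passed, DNA2 was at 0.29, and TONSL passed as lower at -0.11 (adjusted p-value 0.00394). MMS22L, NBN, RAD54L, FANCF and CHEK2 still passed, in the same direction. Genes that passed as higher with the correction and not before it were BARD1, BRIP1, RAD51C, RAD54B, RAD50, EXO1, BLM and FANCI, from 0.11 for RAD50 to 0.25 for BRIP1 (adjusted p-value 1.22e-06). Besides TONSL, those that passed as lower were XRCC3, at -0.23 (adjusted p-value 9.33e-05), and the core genes FANCA, FANCE and FANCG. Scaling by library totals alone gave 9 (20.9%) lower and 11 (25.6%) higher, where 18.9% and 29.8% of all tested genes were, and it moves the median of all genes from 0.0014 to 0.05. The correction removes any trend that differs between the groups, whatever its source, and the part of base composition in the changes was not tested further.

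**Figure D4:**
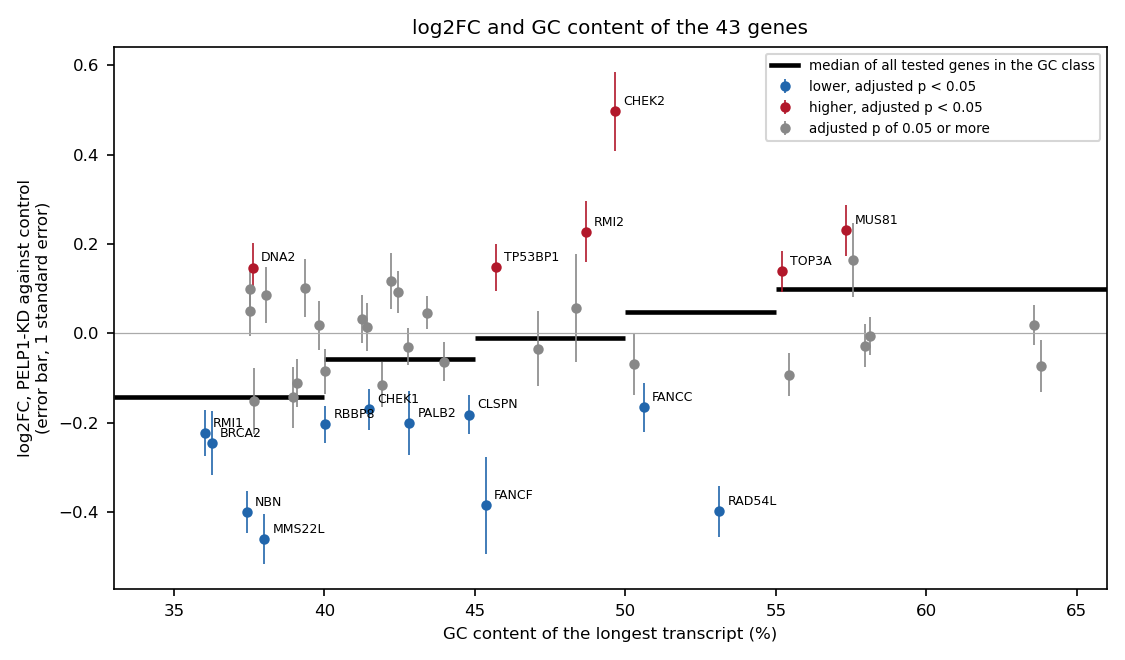
Log2FC of the 43 genes against the GC content of their longest transcript in percent, with bars of 1 standard error, and the median log2FC of all tested genes in 5 classes of GC content (black lines). The class medians climb from -0.14 below 40% to 0.10 at 55% or more. Genes far from the line of their class include MMS22L, NBN, RAD54L, FANCF, CHEK2 and DNA2, the last above its line.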

How the data were processed

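RNA-seq libraries of poly(A) RNA were made from 3 control and 3 PELP1-KD replicates of MDA-MB-231 and sequenced as single reads. The authors deposited raw counts of reads per gene symbol, 1 table per replicate, without normalization. The submitters' processing notes name TopHat2, SAMtools, HTSeq and the build hg19, and versions and the strand setting are not given in the sources used here. Reads with several alignments were on no gene. Their closing total was 32.5% to 32.9% of all counts in each table, which need not be their share of the reads. The closing totals of each table were left out of library sizes and tests.

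From these counts, genes passing edgeR's filterByExpr (minimum count 10) were scaled by TMM and tested by the quasi-likelihood test of edgeR 4.0.16 in R 4.3.3, with Benjamini-Hochberg adjustment over all tested genes. Each log2FC was given a standard error equal to its size over the square root of F. Log2 CPM used a prior count of 2. The paper's methods used DESeq2, which is an alternative here. Lengths and GC content came from GENCODE 29 (GRCh38), matched for 92.8% of the symbols, and promoters from RefSeq (GRCh38.p14), found for 36 of the 43 genes. The tests were checked on simulated counts.

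Groups and replicate numbers came from the sample titles. Within each group, replicates lay further apart than counting noise alone would place them (chi-square over its degrees of freedom, 1.47 to 4.11). The pair differences under GC and length correction were added after seeing the data. The 43 genes, the other lists and the partner pairs were chosen with earlier results of these data known. Every one of the 43 is named. Counts per replicate are given for up to 2 genes per role with the largest called log2FC, and from the other lists the 5 (pathway, end joining) or 2 (cell cycle) largest called changes in each direction are named. MKI67, and USP1 beside WDR48, were named after their values were seen. Alternatives were other scalings, filters and tools, correction for GC content and length, a replicate block and leaving out each replicate.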

Additional observations from a re-analysis of the deposited data

How the results depend on the processing

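Of the 17 called genes, 9 kept their direction and their call under all 15 alternatives (MMS22L, RAD54L, NBN, FANCF, RBBP8, CLSPN, CHEK2, MUS81 and RMI2), and the other 8 lost the call under at least 1. Same-numbered replicates did not deviate together (correlations 0.039, 0.065 and -0.078), which cannot show whether they were prepared together. The replicate block gave 13 of the 43 (30.2%) lower and 6 (14%) higher, where 26.1% and 24.5% of all tested genes were. With library totals 11 of the 43 (25.6%) were higher, where 29.8% of all tested genes were. With correction for GC content and length 13 (30.2%) were higher, and 14 (32.6%) with the replicate block added. All tested genes stood at 22.6% under both settings. As reported the count was 6 (14%) against 22.7%. Without single replicates it ran from 4 (9.3%) to 8 (18.6%), where from 19.1% to 21.9% of all tested genes were higher. G2/M genes higher numbered 5 with library totals, with the GC and length correction and with the replicate block added to it, against 3. G1/S genes higher numbered 10 with library totals against 5, and end joining genes higher 1 with no filter and 1 with DESeq2 against 2. Without single replicates the G1/S count ran from 3 to 5 and the end joining count from 0 to 2. Direction turned only among members that had not passed the test. With library totals the log2FC was 0.015 for RAD51D, 0.022 for FANCE, 0.044 for FANCG and 0.020 for TOPBP1. With GC and length correction it was 0.033 for ATM, 0.029 for ATR, 0.043 for TOPBP1 and -0.11 for TONSL, and with the replicate block added 0.032, 0.029, 0.042 and -0.11, with 0.0011 for RAD51D. Without single replicates it ran from -0.059 to 0.0037 for RAD51D, -0.0025 to 0.039 for XRCC2, -0.087 to 0.13 for RAD52, -0.056 to 0.051 for RAD50, -0.029 to 0.013 for FANCG, -0.049 to 0.0024 for TOPBP1 and -0.034 to 0.051 for TONSL. The causes were not tested.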
